A study of Homo sapiens with 4 samples.

Results

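The cytochrome P450 genes were followed in SeAx cells, a Sézary syndrome line of cutaneous T-cell lymphoma, with and without ectopic miR-124. The members were all probe sets whose single gene symbol on the platform had the form of a functional CYP gene name, that is CYP followed by a family number, a subfamily letter and a member number. By this rule 122 of the 49293 probe sets tested were members, and they stood for 51 of the 18244 genes that a probe set names alone. Of these 51 genes, 19 had 1 probe set and none had more than 6. A further 15 probe sets carried a CYP symbol outside the rule, 10 of them because they name several genes and 5 because they name a pseudogene. Within the family, the members were chosen by name and not by their values. The family itself was taken up with earlier results of these data known. The study singled out CYP1A1 and CYP4Z1 among the changed genes of these same arrays. Their place among the changes is therefore not independent evidence.

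The samples were 4 Affymetrix PrimeView arrays, 2 of control SeAx cells and 2 of SeAx cells that carried miR-124. The labels name the conditions only as Control and miR124. The methods describe the control cells as not transduced and the miR-124 cells as infected with a lentiviral vector and selected in puromycin, so the vector, the selection and the miR-124 itself cannot be told apart in this comparison. All arrays come from 1 cell line, and the sources used here leave unsaid whether both arrays of 1 condition are separate cultures. Every p-value therefore covers the spread between these arrays alone, which may be technical. Levels are given as the authors' log2 signals per probe set, background-corrected, quantile-normalized and summarized, and a difference is miR-124 minus control in log2 units with its standard error (SE).

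The T-cell identity of the line was visible on the arrays only in part. Of 10 T cell markers, CD3D, CD3G, CD2, ZAP70 and CD247 lay above the array median in every array, with CD3D at a mean of 12.03, while CD4, CD5, CD28, CD3E and LCK were dim, between 5.54 and 6.51. CSF1R, a receptor of myeloid cells, and COL3A1, a fibrillar collagen of fibroblasts, were bright at 10.11 and 10.20. Of the 4 myeloid markers, CD14 was also above background, at 6.17, and LYZ and CD163 lay under it. Of the 3 fibroblast markers, the collagen gene COL1A1 was above the array median, at 8.78, and DCN lay under background. CD79A of B cells was above the median, at 7.41, MS4A1 was above background on 3 arrays, and of the keratinocyte markers KRT5 was above background and KRT1 and KRT14 were not. Of 8 hepatocyte markers, the cell type with the most P450s, 5 lay above background and none above the array median on all 4 arrays, and ALB, APOB and SERPINA1 lay under background. The mean over the 8 was 5.53 and 5.86 in control cells and 5.64 and 5.94 in miR-124 cells. No marker of any list passed the study's threshold, which 0.0658% of all genes passed as higher and 0.0877% as lower. CD3E, an invariant chain of the T-cell receptor complex, had a log2 difference of 0.41 (SE 0.09, limma unadjusted p = 0.009). The part of other cell types in the results was not tested.

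Cytochromes P450 are heme enzymes that insert 1 oxygen atom into a substrate. Most sit in the endoplasmic reticulum, where they receive electrons from the reductase POR, and a smaller group sits in mitochondria and receives them through ferredoxin. Their substrates divide the family into enzymes of foreign compounds, of fatty acids and eicosanoids, of sterols and bile acids, of steroid hormones and of vitamins A and D. The liver and the steroidogenic glands hold most members. CYP1A1, CYP1A2 and CYP1B1 are the textbook target genes of the aryl hydrocarbon receptor (AHR), a ligand-activated transcription factor that is also active in T cells.

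The promoters of the members that differed most are shown because 2 of them, CYP1A1 and CYP1A2, lie next to each other on chromosome 15 and each had a probe set past the threshold as higher in miR-124 cells, while CYP4Z1 was lower. The sequences are the 250 bases before the RefSeq start on GRCh38.p14, read 5′ to 3′, and the capitals mark each GCGTG, the core that AHR binds with its partner ARNT, and each TATAAA, on either strand. CYP1A1 lies at chr15:74725529-74725778 on the minus strand, CYP1A2 at chr15:74748595-74748844 on the plus strand and CYP4Z1 at chr1:47066981-47067230 on the plus strand.
CYP1A1: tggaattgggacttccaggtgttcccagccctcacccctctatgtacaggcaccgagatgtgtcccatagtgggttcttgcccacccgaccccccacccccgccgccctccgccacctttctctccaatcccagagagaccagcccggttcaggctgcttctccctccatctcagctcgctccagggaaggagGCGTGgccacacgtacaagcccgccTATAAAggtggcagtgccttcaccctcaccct
CYP1A2: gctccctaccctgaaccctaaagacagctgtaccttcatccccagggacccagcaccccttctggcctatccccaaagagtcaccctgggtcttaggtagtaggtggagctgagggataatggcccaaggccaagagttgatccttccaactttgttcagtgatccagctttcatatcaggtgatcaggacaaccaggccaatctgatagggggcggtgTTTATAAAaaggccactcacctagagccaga
CYP4Z1: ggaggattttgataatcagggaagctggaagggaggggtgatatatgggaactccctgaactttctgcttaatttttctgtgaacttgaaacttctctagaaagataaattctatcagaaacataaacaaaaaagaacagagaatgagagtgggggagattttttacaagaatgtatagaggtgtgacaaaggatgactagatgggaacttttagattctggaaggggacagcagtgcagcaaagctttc
In the CYP1A1 window, GCGTG stood once, with its first base 57 bases before the start, and TATAAA once, 32 bases before it. The CYP1A2 window held no GCGTG and a TATAAA on each strand, which overlap by all but a pair of bases at each end. The CYP4Z1 window held neither word. Of all 35116 RefSeq windows of this length, 32.2% held GCGTG and 10.7% held TATAAA. RefSeq windows were given for 37 of the 51 genes, some with several starts, and 10 of these genes held GCGTG and 15 held TATAAA in at least 1 window, which is 10 and 15 of their 50 windows. A match is a description of the letters and not of a binding site.

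Most P450 genes lay within the range of the array background. The 23 background probe sets of the array had means of 5.18 to 5.23 per array, and a gene was counted as above background when its brightest probe set exceeded that mean on all 4 arrays. This held for 31 of the 51 P450 genes (60.8%), while it held for 79.1% of all genes. The background probe sets themselves ran from 2.97 to 9.64 with their GC content, and the GC content of the member probes was not used here, so this limit is a low one. Against the highest background probe set, 4 genes were higher on all arrays, CYP1B1, CYP1A1, CYP20A1 and CYP2R1 (7.84%, against 25.5% of all genes). Against the array median of all probe sets 12 were (23.5%, against 51.5%). The other 20 genes had means of 3.63 to 5.31, and 18 of them lay under the mean background on every array.

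**Figure D1:**
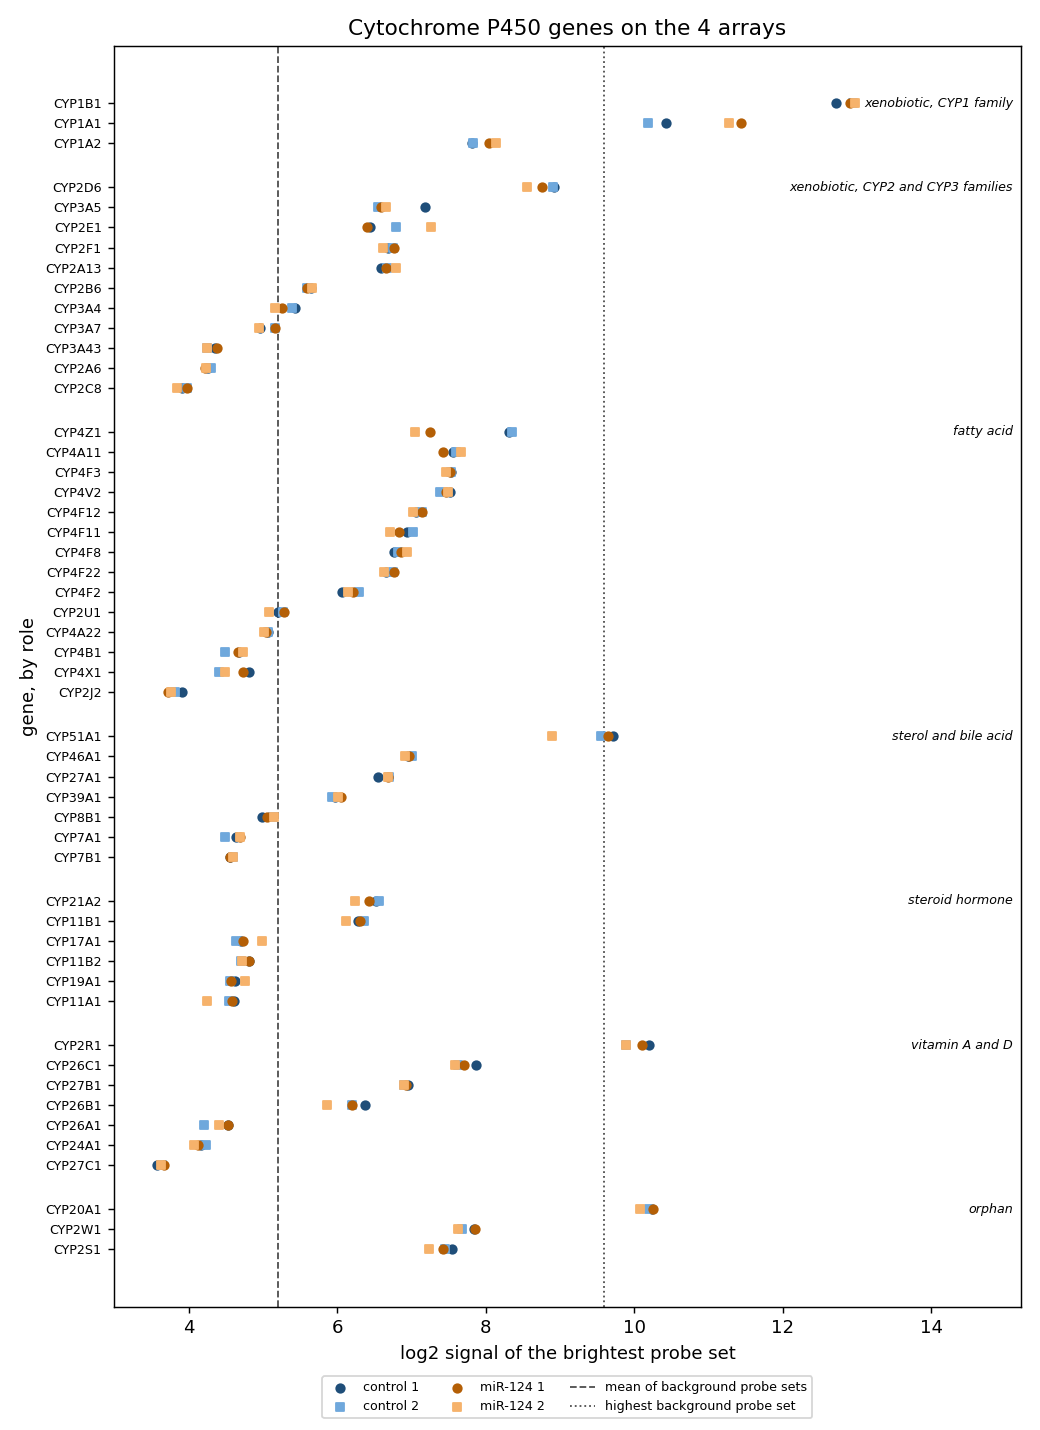
Log2 signal of the brightest probe set of each of the 51 P450 genes (rows, grouped by role) on the 4 arrays (points); the dashed line is the mean and the dotted line the highest of the background probe sets, each averaged over the arrays. CYP1B1 lies farthest right, and the control and miR-124 points of CYP1A1 and CYP4Z1 lie visibly apart.

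The CYP1 family held the brightest member and all 3 probe sets that passed the study's threshold as higher in miR-124 cells. That threshold is an unadjusted p under 0.05 with a fold change above 1.5. In the fit used here it was passed by 91 probe sets and, at the gene level, by 28 genes. The paper reports far more differentially expressed genes at these limits, and the reason for the gap was not tested. CYP1B1, which oxidizes polycyclic hydrocarbons and estrogens, was the brightest P450 of the line. Its brightest probe set read 12.72 and 12.95 in control cells and 12.90 and 12.97 in miR-124 cells. CYP1A1, which oxidizes polycyclic aromatic hydrocarbons, read 10.43 and 10.18 in control cells and 11.43 and 11.28 in miR-124 cells. Both miR-124 arrays lay above both controls by more than the arrays of a condition differed from each other. CYP1A1 was 2.07-fold higher (log2 difference 1.05, SE 0.13, limma unadjusted p = 0.00064), and its level lay at the 90.8 percentile of all probe sets. Its second probe set read 8.80 and 8.41 against 9.74 and 9.78, or 2.23-fold higher (log2 difference 1.16, SE 0.15, limma unadjusted p = 0.00096). The difference was present within each array number, which is the replicate number in the labels, at 1.00 between the arrays numbered 1 and 1.09 between those numbered 2 on the brighter probe set, and at 0.95 and 1.37 on the other.

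CYP1A2, the liver enzyme of caffeine and aromatic amines and the neighbour of CYP1A1, was also higher on both of its probe sets, by less on the brighter one. Whether these probe sets read CYP1A2 apart from CYP1A1 was not tested. The brighter read 7.81 and 7.83 in control cells and 8.04 and 8.14 in miR-124 cells, a log2 difference of 0.27 (SE 0.09, limma unadjusted p = 0.032), which is under the 1.5-fold limit. The dimmer read 6.74 and 6.99 against 7.28 and 8.01 and passed the threshold, at 1.71-fold higher (log2 difference 0.78, SE 0.27, limma unadjusted p = 0.039). The groups did not overlap on either probe set, with miR-124 higher, which held for 18.8% of all probe sets. The 2 miR-124 arrays, however, differed by 0.74 on the dimmer one. It no longer passed without control replicate 1, control replicate 2 or miR-124 replicate 2, at log2 differences of 0.65, 0.90 and 0.41.

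CYP1B1 had 5 probe sets, all with a positive log2 difference and none past the threshold. On 4 of them the arrays of the 2 conditions overlapped, with log2 differences of 0.10 to 0.26. On the fifth, with 12.23 and 12.60 in control cells against 12.76 and 13.22, the log2 difference was 0.57 (SE 0.21, limma unadjusted p = 0.046), or 1.49-fold, just under the limit. On that probe set the arrays numbered 2 were above those numbered 1 by 0.37 in control cells and by 0.46 in miR-124 cells. The log2 difference of this probe set was 0.39 without control replicate 1 and 0.76 without control replicate 2. It was 0.80 without miR-124 replicate 1 and 0.34 without miR-124 replicate 2. After cyclic loess the probe set passed, at 0.59, as did 0.199% of all probe sets. The 9 probe sets of the CYP1 family stand for only 3 genes, so they are not independent readings. All their log2 differences were above 0, with a median of 0.27, while the median over all tested probe sets was 0.00.

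**Figure D2:**
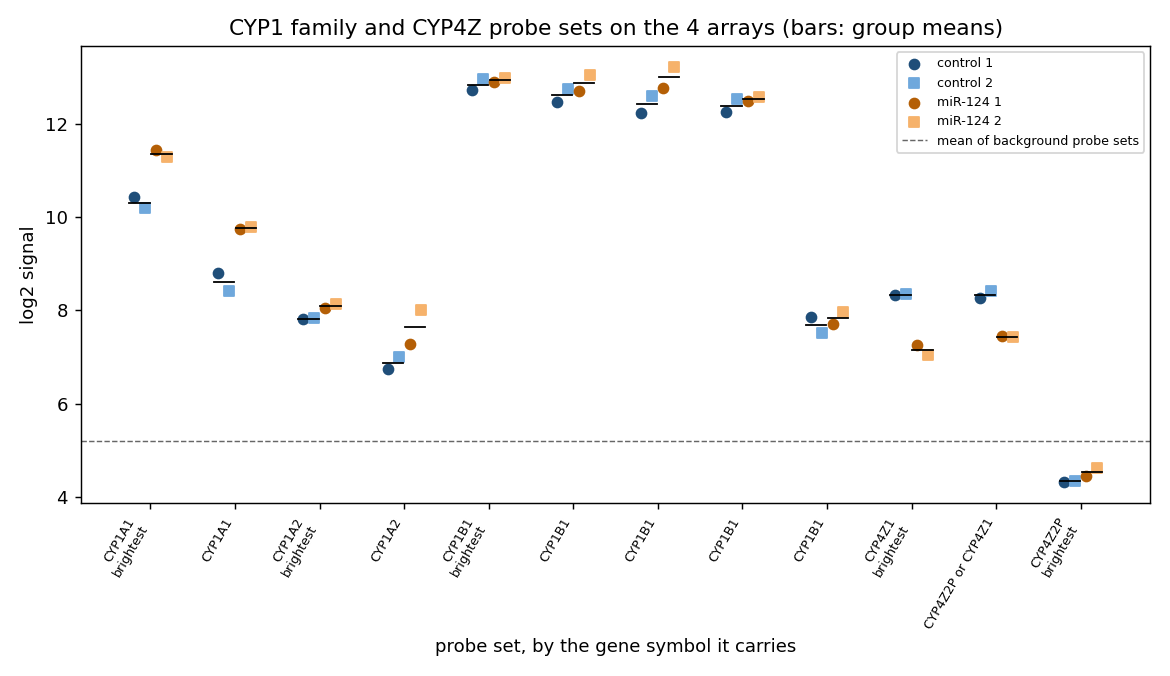
Log2 signal of every CYP1 and CYP4Z probe set (columns, named by the symbol the probe set carries) on the 4 arrays (points), with black bars at the mean of each condition (n = 2); the dashed line is the mean background. The miR-124 points lie above the controls for CYP1A1 and below them for CYP4Z1 and for the probe set shared with its pseudogene.

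CYP4Z1, a fatty acid hydroxylase best known from breast tissue, was the only member past the threshold as lower. Control cells read 8.32 and 8.35, and miR-124 cells 7.25 and 7.05. The controls agreed within 0.03, and both miR-124 arrays lay more than 1 log2 unit under them. CYP4Z1 was 2.28-fold lower (log2 difference -1.19, SE 0.10, limma unadjusted p = 0.00017), with differences of -1.07 between the arrays numbered 1 and -1.30 between those numbered 2. It is measured alone by 1 probe set. A second probe set, which names both CYP4Z1 and the pseudogene CYP4Z2P, read 8.27 and 8.41 against 7.45 and 7.43, and its log2 difference was -0.90 (SE 0.09, limma unadjusted p = 0.00033). The probe set of CYP4Z2P alone lay under the background, with 4.32 and 4.34 in control cells against 4.45 and 4.61. The level of CYP4Z1 was under the highest background probe set on every array, at the 55.6 percentile of all probe sets, and in miR-124 cells it was under the array median.

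The genes that lie beside CYP4Z1 on chromosome 1 were also looked at. In their order along the chromosome these are CYP4B1, CYP4A11, CYP4X1, CYP4Z1 and CYP4A22. CYP4A11, which makes the vasoactive eicosanoid 20-HETE in kidney, was the only other one above background, and it read 7.56 and 7.60 in control cells and 7.43 and 7.66 in miR-124 cells. The log2 differences of CYP4B1, CYP4A11, CYP4X1 and CYP4A22 were 0.12, -0.03, 0.00 and -0.04. Beside CYP1A1 and CYP1A2 on chromosome 15, CYP11A1, the enzyme that starts steroid synthesis by cutting the side chain of cholesterol, lay under the background on every array. CYP4B1, CYP4X1, CYP4A22 and CYP11A1 lay under the background, where a difference may not be detectable.

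Over the whole family, 4 of the 122 probe sets passed the study's threshold. Of these, 3 were higher (2.46%, against 0.069% of all probe sets) and 1 was lower (0.82%, against 0.116%). At the gene level, with each gene represented by its brightest probe set, CYP1A1 was higher and CYP4Z1 lower, or 1.96% of the 51 genes in each direction, against 0.0658% and 0.0877% of all genes. Probe sets of 1 gene are not independent, and the study had shown both genes from these arrays. An adjusted p under 0.05 was reached by 0 of the 122 probe sets and by 0% of all probe sets in limma, and the smallest adjusted p of a member was 0.88. An unadjusted p under 0.05 was found for 8 of the 122 (6.56%, against 4.73% of all probe sets). The arrays of the conditions did not overlap for 47 of the 122 (38.5%, against 34.7%), 22 of them higher (18.8% of all probe sets) and 25 lower (15.9% of all). With 2 arrays against 2, an exact permutation test of a single gene cannot give a two-sided p under 0.33.

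Leaving out miR-124 replicate 1 brought 8 members past the threshold (6.56%), but it also raised the calls over the whole array from 91 to 1078 probe sets (2.19%), so the added members are not a result about the P450s. Leaving out miR-124 replicate 2 brought 3 members past it (2.46%, against 0.412% of all probe sets). The additions without miR-124 replicate 1 were probe sets of CYP1B1, CYP2E1 and CYP51A1. Without control replicate 1 a dim CYP2U1 probe set was added and the CYP1A2 probe set was lost, so that 4 members passed (3.28%, against 0.262% of all probe sets). Without control replicate 2, 4 passed as well (3.28%, against 0.627%). Both CYP1A1 probe sets and CYP4Z1 passed with each of the 4 arrays left out in turn. The median log2 difference of the 122 probe sets was 0.00, as it was over all tested probe sets. Of the 122, 56 were above 0 and 66 below, and 112 lay within 0.3 of 0. The matching shares of all probe sets are not given here, so these counts only describe the members.

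**Figure D3:**
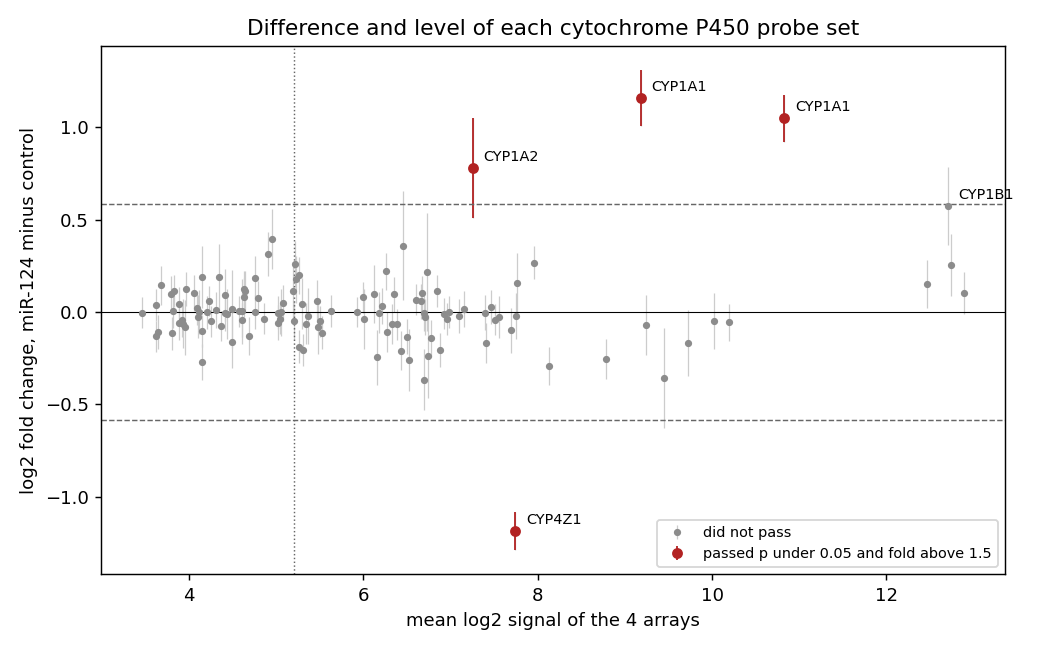
Log2 fold change, miR-124 minus control, of each of the 122 P450 probe sets (vertical axis, bars are the standard error from limma) against its mean log2 signal on the 4 arrays (horizontal axis); dashed lines mark a fold change of 1.5 and the dotted line the mean background. The probe sets of CYP1A1, CYP1A2 and CYP4Z1 past the threshold lie outside the dashed lines, and the CYP1B1 probe set lies just inside.

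Among the other P450s of foreign compounds, 6 of 11 genes in the CYP2 and CYP3 families were above background. None of their 28 probe sets passed the threshold, which only 0.069% of all probe sets passed as higher and 0.116% as lower. A group of this size may thus hold no call, so the absence is not a result about these genes. CYP2D6, the polymorphic enzyme of many drugs, was the brightest, with 8.92 and 8.91 in control cells against 8.76 and 8.55. Its log2 difference was -0.26 (SE 0.11, limma unadjusted p = 0.068) on the only probe set that names it alone. A probe set shared with CYP2D7 was at 0.31 and cannot be assigned to either gene. CYP2E1, which oxidizes ethanol, read 6.45 and 6.80 in control cells and 6.41 and 7.27 in miR-124 cells. The miR-124 array numbered 2 was its highest, and the other miR-124 array its lowest. CYP3A5, an enzyme of drugs and steroids, read 7.18 and 6.55 in control cells and 6.59 and 6.65 in miR-124 cells, so that control 1 alone was high. CYP2A13, a lung enzyme of tobacco nitrosamines, ranged over the 4 arrays from 6.59 to 6.80, CYP2F1, also of lung, from 6.61 to 6.77 and CYP2B6, a liver enzyme, from 5.60 to 5.66. CYP3A4, the main drug-metabolizing enzyme of liver, was above background on 3 of 4 arrays, and CYP2A6, CYP2C8, CYP3A7 and CYP3A43 on none.

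Of the 14 genes of fatty acids and eicosanoids, 9 were above background, CYP4Z1 among them. CYP4V2, whose loss causes a crystalline retinal dystrophy, read 7.52 and 7.39 in control cells and 7.47 and 7.49 in miR-124 cells. CYP4F3, the leukotriene B4 hydroxylase of leukocytes, read 7.54 and 7.54 against 7.52 and 7.47. Their log2 differences were 0.02 and -0.04 on these brightest probe sets. The dimmest probe set of CYP4V2 read 7.09 and 6.66 in control cells against 6.54 and 6.47. Its log2 difference was -0.37 (SE 0.17, limma unadjusted p = 0.084), while the remaining CYP4V2 probe sets were at -0.01 and 0.01. CYP4F11 read 6.94 and 7.02 in control cells and 6.83 and 6.71 in miR-124 cells, with a log2 difference of -0.21 (SE 0.09, limma unadjusted p = 0.084). CYP4F8, which acts on prostaglandins, read 6.76 and 6.82 against 6.87 and 6.94. CYP4F12 ranged from 7.02 to 7.14, CYP4F22, which makes fatty acids for the ceramides of the skin barrier, from 6.63 to 6.77, and CYP4F2, a hydroxylase of arachidonic acid and vitamin K, from 6.07 to 6.29. These CYP4F genes lie in a cluster of similar genes on chromosome 19, and 3 probe sets outside the rule name both CYP4F2 and CYP4F3, so the members may not be read apart. CYP2J2, CYP4A22, CYP4B1 and CYP4X1 were under the background. CYP2U1 was above it on 3 of 4 arrays, and over its 6 probe sets the difference ran from -0.27 to 0.40.

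Of the 7 genes of sterols and bile acids, CYP51A1 was the brightest. It encodes the lanosterol demethylase of cholesterol synthesis, which every dividing cell uses. CYP51A1 read 9.71 and 9.55 in control cells and 9.65 and 8.89 in miR-124 cells, and only the miR-124 array numbered 2 was apart from the others. Its log2 difference was -0.36 (SE 0.27, limma unadjusted p = 0.25), and with miR-124 replicate 1 left out the difference was -0.74 and passed. On its other probe sets the log2 differences were -0.07 and 0.22. CYP46A1, the cholesterol 24-hydroxylase of neurons, ranged over the arrays from 6.92 to 7.01. CYP27A1, the mitochondrial sterol 27-hydroxylase, ranged from 6.56 to 6.70 and CYP39A1, an oxysterol hydroxylase, from 5.93 to 6.06. The bile acid enzymes CYP7A1, CYP7B1 and CYP8B1 were under the background on every array.

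Of the 6 genes of steroid hormones, CYP11B1, an adrenal hydroxylase of cortisol synthesis, and CYP21A2, the adrenal 21-hydroxylase, were above background but dim. CYP11B1 read 6.28 and 6.37 in control cells and 6.31 and 6.12 in miR-124 cells. CYP21A2 read 6.53 and 6.56 against 6.43 and 6.24, with a log2 difference of -0.21 (SE 0.10, limma unadjusted p = 0.10). CYP11A1, CYP11B2, CYP17A1 and CYP19A1, the aromatase, lay under the background on every array.

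Of the 7 genes of vitamins A and D, CYP2R1, the vitamin D 25-hydroxylase, was the brightest, and read 10.20 and 9.89 in control cells and 10.11 and 9.88 in miR-124 cells. The arrays numbered 1 were higher in both conditions, and the conditions overlapped. CYP27B1, which makes the active hormone from the product of CYP2R1, read 6.95 and 6.90 against 6.93 and 6.91, and CYP24A1, which degrades it, was under the background. The vitamin D receptor, VDR, read 11.48 and 10.68 in control cells against 11.31 and 10.70. Of the retinoic acid hydroxylases, CYP26C1 read 7.87 and 7.63 against 7.71 and 7.58, CYP26B1 read 6.37 and 6.20 against 6.21 and 5.87, and CYP26A1 was under the background, as was CYP27C1, a retinoid desaturase of skin. None of the 11 probe sets passed, against 0.069% of all probe sets as higher and 0.116% as lower. With so few probe sets, the absence of a call is not a result about these genes. The log2 differences of the 11 ran from -0.25 to 0.09.

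The 3 members without an established physiological substrate were all above background. CYP20A1 read 10.24 and 10.20 in control cells and 10.25 and 10.07 in miR-124 cells on its brightest probe set. On the dimmest of its 3 probe sets it read 8.28 and 8.28 against 8.09 and 7.89, with a log2 difference of -0.29 (SE 0.10, limma unadjusted p = 0.042), which is under the 1.5-fold limit. CYP2W1, known from fetal gut and colon tumours, read 7.85 and 7.68 against 7.86 and 7.63. CYP2S1, which AHR also induces, read 7.54 and 7.45 in control cells and 7.42 and 7.23 in miR-124 cells (log2 difference -0.17, SE 0.11, limma unadjusted p = 0.18). Both miR-124 arrays lay below both controls, as for 15.9% of all probe sets.

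The partner genes of the P450s did not pass the study's threshold. These were the electron donors, heme synthesis, the AHR pathway, cholesterol synthesis, retinoid handling, nuclear receptors, epoxide hydrolases and the P450 genes with other names. Of 86 measured partner genes, 46 were above 0 and 40 below, with a median difference of 0.01 in log2 units, and none of their 252 probe sets passed. Over all probe sets, 0.069% passed as higher and 0.116% as lower, and over all genes 0.0658% and 0.0877%. At such shares a list of this size may hold no call, so the absence is not a result about the partner genes. An unadjusted p under 0.05 at the gene level was found for 6 of them (6.98%, against 4.46% of all genes), all 6 higher (2.7% of all genes). Without miR-124 replicate 1, 6 partner genes passed the threshold (6.98%, against 1.86% of all genes in that fit), namely FDX2, HSP90AA1, TIPARP, NQO1, INSIG1 and PPARD. Without control replicate 2, FDX2 alone did (1.16%, against 0.559%).

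AHR itself was abundant in both conditions. Its brightest probe set read 12.40 and 12.48 in control cells and 12.40 and 12.43 in miR-124 cells, while on its other probe sets the log2 differences were -0.30 and -0.33 (unadjusted p = 0.043 and 0.029 in limma), both under the 1.5-fold limit. ARNT, the partner of AHR, had a log2 difference of 0.02. Of the target genes of AHR outside the P450s, TIPARP, a mono-ADP-ribosyltransferase that represses AHR, read 8.33 and 8.29 against 8.58 and 9.16, with a log2 difference of 0.56 (SE 0.21, limma unadjusted p = 0.048) on its brighter probe set and 0.78 on the other. The study had shown TIPARP among the changed genes of these arrays. AHRR, the AHR repressor, differed by -0.11 on its brighter probe set and 0.29 on the dimmer. NQO1, a quinone reductase, read 10.66 and 11.22 against 10.97 and 11.75, and the arrays of the conditions overlapped. PTGES3, a chaperone of the AHR complex and the brightest gene of that list, had a log2 difference of -0.10. ALDH3A1, GSTA1 and GSTA2 of the same list were dim, with log2 differences of -0.08, -0.23 and 0.24 on their brightest probe sets. Of these, GSTA2 lay under the background. Over the 13 genes measured, 5 were above 0 and 8 below, and the median was -0.05.

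The electron donors were present in both conditions. POR, the reductase of the microsomal P450s, read 8.87 and 8.93 in control cells and 9.07 and 9.13 in miR-124 cells, a log2 difference of 0.20. CYB5A, cytochrome b5 and the brightest of the 10 donors measured, was at -0.02. FDX1, a ferredoxin of the same list, was at 0.06 on its brightest probe set. FDX2, a mitochondrial ferredoxin of iron-sulfur cluster and heme A synthesis, had a log2 difference of 0.47 and was among the 6 with an unadjusted p under 0.05, as were BLVRB, a biliverdin reductase and the brightest of the 14 genes of heme synthesis and breakdown, at 0.32, and SREBF2, the transcription factor of cholesterol synthesis, at 0.23. The others were the nuclear receptors NR1H3, at 0.33, and PPARG, at 0.29. ACAT2, the brightest of the 19 genes of cholesterol synthesis, had a log2 difference of -0.13, RDH10 of retinoid handling 0.08, the retinoic acid receptor RARA 0.23 and the epoxide hydrolase EPHX1 0.07. TBXAS1, the thromboxane synthase and a P450 with another name, was at 0.01. POR, FDX1, AHR, ARNT, AHRR, NQO1, ALDH3A1, GSTA1, GSTA2, VDR and the genes with a low unadjusted p were named after their values had been seen.

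**Figure D4:**
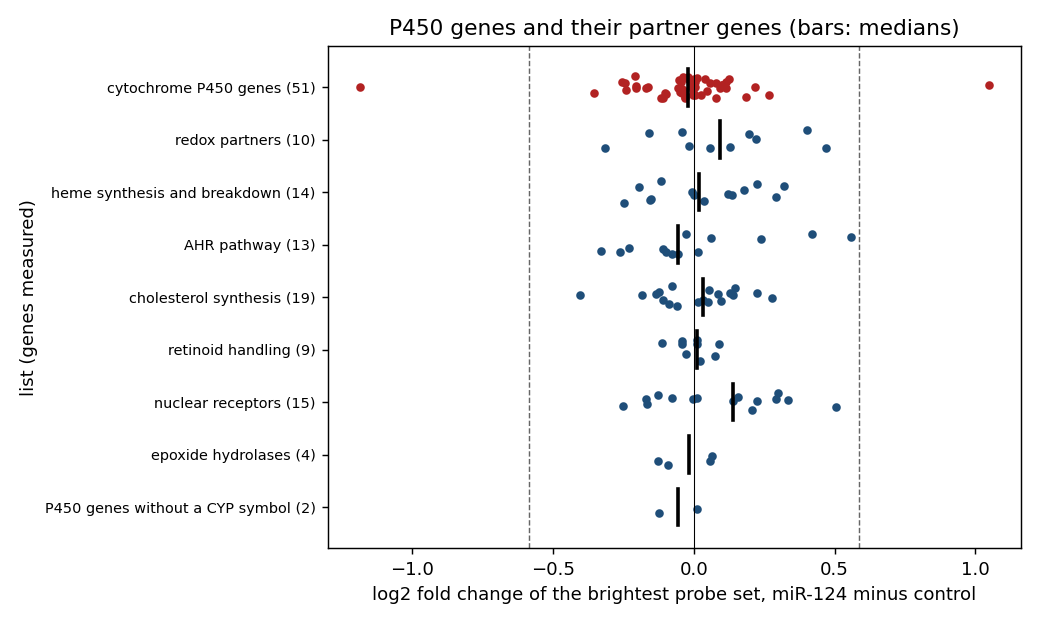
Log2 fold change, miR-124 minus control, of the brightest probe set of each P450 gene (red) and each partner gene (blue), by list with the number of genes measured; black bars are medians, dashed lines mark a fold change of 1.5, and points are shifted up or down at random for visibility. Only 2 P450 genes, CYP1A1 and CYP4Z1, lie outside the dashed lines.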

How the data were processed

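The deposited values are log2 signals of probe sets from 4 PrimeView arrays, which the authors background-corrected, quantile-normalized and summarized by RMA. RMA and limma are the tools in the submitters' processing notes. One paragraph of the methods names Agilent arrays for the same comparison, but the labels and the values are those of the Affymetrix arrays. The log2 values were used as deposited, so a change in total RNA per cell is not visible. Of 49495 rows, 202 array and spike-in controls were left out. Genes were named from the platform annotation. The groups were compared by lmFit and eBayes of limma 3.58.1 (R 4.3.3), with condition as the only term, over all 49293 probe sets, and again over 18244 genes each by its brightest probe set on average. The p-values in the text are those of the probe set fit, unless a gene-level count is named, and Benjamini-Hochberg adjustment was taken over the whole table. The script was tested on simulated data.

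The members and lists were chosen with earlier results of these data known. Array values are given for the members above background and for those with a probe set past the threshold, and the others are given in groups. Partner genes were to be named where past the threshold, with the brightest of each list. The alternatives were a replicate block, leaving out each array, cyclic loess, array weights, a trended and robust prior, filters on dim probe sets, the mean of a gene's probe sets and stricter background limits. Promoter sequences come from RefSeq on GRCh38.p14. Precision is limited by having 4 arrays.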

Additional observations from a re-analysis of the deposited data

How the results depend on the processing

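The calls of CYP1A1 on both probe sets and of CYP4Z1 held at the study's threshold under every alternative fit, while other members depended on single arrays. With each array left out in turn, 3 to 8 P450 probe sets, 2 to 4 P450 genes and 0 to 6 partner genes passed the threshold, and 31 to 33 P450 genes were above background. Over the same fits, 0.262% to 2.19% of all probe sets and 0.181% to 1.86% of all genes passed, and the highest of each came without miR-124 replicate 1. At an adjusted p under 0.05, 0 probe sets and 0 genes of the family passed. Above the highest background probe set 4 P450 genes were counted, and above the array median 12. Direction was not settled for members with small differences. With each array left out in turn, the log2 fold change on the brightest probe set ran from -0.013 to 0.21 for CYP1B1, from -0.15 to 0.032 for CYP20A1, from -0.20 to 0.105 for CYP2R1 and from -0.74 to 0.025 for CYP51A1. Leaving out 1 array unbalances the array numbers, and the array left alone is taken to vary as the other condition does. Arrays of the same number deviated together (correlation of 0.64, the same for both numbers by construction), but no source says that the number pairs them. With a replicate block, 4 P450 probe sets, 2 P450 genes and 0 partner genes passed, as without it, while 0.339% of all probe sets and 0.269% of all genes did. Many members lie within the range of the background probe sets, where signal over background limits what can be seen.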

Other observations

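Some P450 genes differed more between the arrays numbered 1 and 2 than between the conditions. On its brightest probe set, CYP51A1 was lower in the arrays numbered 2, by 0.16 in control cells and 0.76 in miR-124 cells on the log2 scale. The second probe set was lower by 0.25 and 0.35, but the dimmest was higher by 0.10 and 0.15. INSIG1, a sterol-regulated gene of the same pathway, read 9.94 and 9.44 in control cells and 9.74 and 8.83 in miR-124 cells. CYP2E1 was higher in the arrays numbered 2, by 0.35 and 0.86 on its brighter probe set and by 0.09 and 0.85 on the other. The hepatocyte gene TTR, the carrier of thyroxine and retinol, differed between the numbers by more, at 5.19 and 7.31 in control cells and 5.54 and 7.92 in miR-124 cells, while ALB ranged from 4.38 to 4.65. What the array number stands for is not given in the sources used here.

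Of the 15 probe sets with a CYP symbol outside the rule, the one shared by CYP4Z1 and CYP4Z2P alone passed the study's threshold. Both probe sets of the pseudogene CYP2B7P and both of CYP4F24P lay under the mean background on all arrays.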
